A study of Mus musculus with 21 samples.

Results

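The 10 genes described here encode the subunits of the phosphatase calcineurin, the proteins that restrain it and the NFAT transcription factors that it activates. They are the catalytic subunits Ppp3ca and Ppp3cb, the regulatory subunit Ppp3r1, the inhibitors Rcan1 and Rcan2, the Z-disc protein Myoz2, and the factors Nfatc1, Nfatc2, Nfatc3 and Nfatc4. The 10 were chosen by name, by matching the Ensembl identifiers of the count table to these symbols, out of 22136 genes in the table. All 10 passed a filter of at least 1 CPM (counts per 1000000 counts of the library) in at least 3 libraries, which left 12100 genes for testing. The rule uses no measured value, though earlier results of these data were known when the set was named.

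Calcineurin is a phosphatase that calcium and calmodulin switch on. It removes phosphates from NFAT proteins, which then enter the nucleus and join GATA4 and MEF2 at the promoters of growth genes, and in the heart this route is known for driving hypertrophy of the muscle cell. Rcan1 is both an inhibitor of calcineurin and a target of NFAT, so its transcript is widely used as a readout of the pathway.

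RNA was sequenced from the left ventricle of wild-type male C57BL/6 mice that were 8 weeks old at surgery, with 3 mice in each of 7 groups and 21 libraries in all. Tissue was taken at week 8 after surgery in every group. Sham mice had the chest opened without a constriction. AB mice had the ascending aorta banded and received no therapy, and AB_Implant mice were banded and carried the nerve stimulator without current. The other 4 groups were banded and received low-level stimulation of the left cervical vagus nerve at 4 µA and 2 Hz from a self-powered, degradable implant. VNS20_1w mice were stimulated for 20 min a day from week 1 for 7 weeks, VNS20_2w mice for 20 min from week 2 for 6 weeks, VNS20_4w mice for 20 min from week 4 for 4 weeks, and VNS10_1w mice for 10 min from week 1 for 7 weeks. The stimulated groups therefore differ from AB_Implant in current and from AB in both implant and current. The labels give an implant week for AB_Implant alone, week 1, so the time with the implant may differ as well, above all in VNS20_2w and VNS20_4w. The libraries are labelled as separate mice of each group, and p-values measure the spread between them.

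Library totals ran from 11577509 to 19414865 counts. The summed level of 6 cardiomyocyte markers was 29131 to 53295 CPM, so heart muscle was present in all 21 libraries. This sum does not tell ventricle from atrium, and summed atrial markers ran from 0.76 to 511 CPM. Libraries differed in how their counts depended on gene length, measured as the slope of log2 CPM on log2 exon length across genes. It lay between -0.543 and -0.493 in the 3 VNS20_4w libraries and between -0.198 and 0.0129 in the 3 AB_Implant libraries. It was highest, at 0.184 to 0.208, in replicate 2 of VNS20_1w, replicate 1 of VNS20_2w and replicate 2 of VNS10_1w. Summed liver markers were at most 1.48 CPM in the 9 unstimulated libraries and 18.7 to 109 CPM in the 12 stimulated ones, and their part in the differences between stimulated and unstimulated groups was not tested. No 2 libraries agreed within sampling noise. In whole tissue, fewer cells of a type and less RNA per cell cannot be told apart.

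Rcan1 was the member whose transcript differed most between groups, and its 2 annotated start regions are shown because the calcineurin-responsive transcript is known to begin at the inner one. Each line gives the 250 bases before a RefSeq transcript start in build GRCm38.p6, read 5′ to 3′ on the minus strand. The distal window is chr16:92466170-92466419 and the inner window, ahead of the short transcript's first exon, is chr16:92400079-92400328. Capitals mark the NFAT core GGAAA, which reads TTTCC on the other strand. They also mark the AP-1 motif TGACTCA, which reads TGAGTCA on the other strand, and the palindromic CRE motif TGACGTCA. Both strands were searched, and no marked motifs overlap.
Rcan1 distal start: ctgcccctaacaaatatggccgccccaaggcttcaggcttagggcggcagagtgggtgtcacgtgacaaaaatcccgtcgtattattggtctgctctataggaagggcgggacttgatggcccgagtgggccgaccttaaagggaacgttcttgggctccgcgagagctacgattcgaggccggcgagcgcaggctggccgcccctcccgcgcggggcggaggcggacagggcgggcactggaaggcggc
Rcan1 inner start: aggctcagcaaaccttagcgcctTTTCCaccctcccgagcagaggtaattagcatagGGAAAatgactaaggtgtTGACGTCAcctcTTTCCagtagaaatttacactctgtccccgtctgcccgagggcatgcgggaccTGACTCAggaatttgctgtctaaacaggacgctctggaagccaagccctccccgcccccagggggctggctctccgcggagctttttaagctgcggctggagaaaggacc
The inner window held 3 NFAT cores, whose first bases lay 227, 193 and 163 bases before the start. It also held 1 CRE motif at 175 bases and 1 AP-1 motif at 110 bases before the start. The distal window held 0 of the 3 motifs. The NFAT core is short, and 55.6% of 32851 annotated windows of this length held it, while 21.4% held it at least 2 times. The AP-1 motif was in 4.46% and the CRE motif in 1.55% of windows. Windows were annotated for 8 of the 10 members, Ppp3ca and Nfatc1 being the others, and 8 of their 13 windows (61.5%) held the core. These are matches of letters, and no binding was measured. Gene-level counts add the long and short Rcan1 transcripts together, so the counts do not tell which start was used.

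Per kilobase of exon, the members spanned a wide range of levels, on the scale of CPM corrected by the trimmed mean of M-values (TMM). Myoz2, which tethers calcineurin to the Z-disc and restrains it, led with a mean of 369 CPM per kb over 21 libraries. Rcan2, the second inhibitor, followed at 18.5 CPM per kb, and Rcan1 averaged 14.6 CPM per kb. Rcan2 was above Rcan1 in 17 of 21 libraries. The subunits lay lower and close together. Ppp3r1, the calcium-binding regulatory subunit, averaged 2.68, Ppp3cb 2.60 and Ppp3ca 2.30 CPM per kb. The order among the subunits was not steady, since Ppp3r1 exceeded Ppp3cb in 10 of 21 libraries and Ppp3cb exceeded Ppp3ca in 12. All 4 NFAT transcripts lay at or below 1.15 CPM per kb in every library. Nfatc4 averaged 0.620, Nfatc1 0.608, Nfatc2 0.485 and Nfatc3 0.331 CPM per kb, and Nfatc4 exceeded Nfatc1 in only 11 of 21 libraries.

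**Figure D1:**
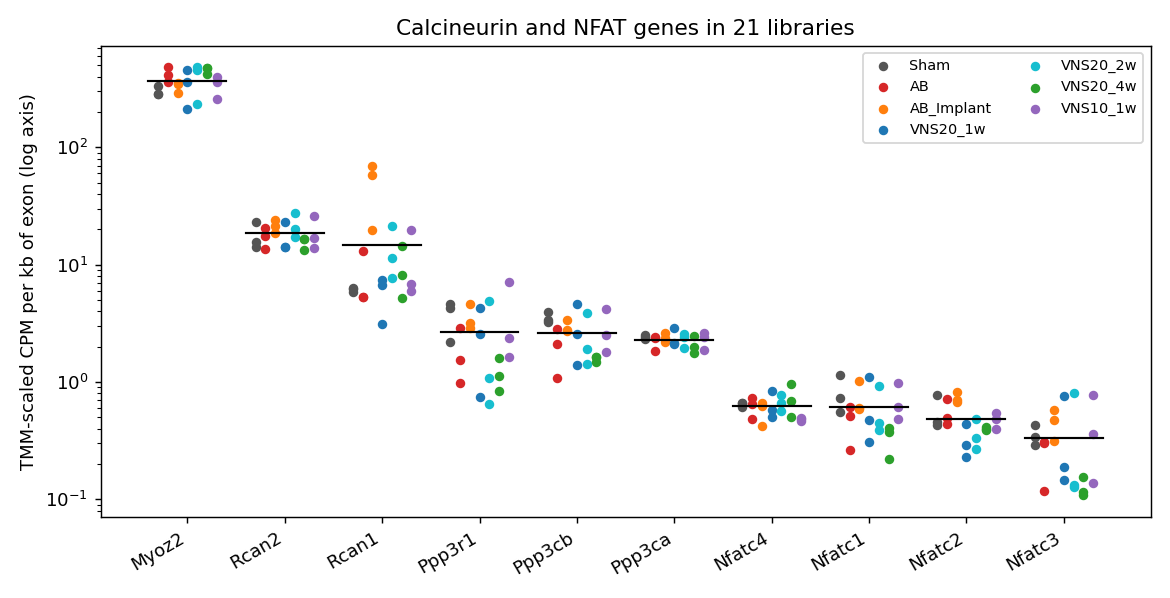
TMM-scaled CPM per kb of exon (log axis) for each of the 10 members; each point is 1 of 21 libraries, coloured by group, and each black line is the mean over libraries. Myoz2 stands highest at a mean of 369 CPM per kb and Nfatc3 lowest at 0.331, and 2 of the 3 AB_Implant points of Rcan1 lie above all its other libraries.

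Rcan1 was low in Sham hearts and in 2 of 3 AB hearts and was higher in AB_Implant hearts. Its TMM-scaled level was 18.1, 19.6 and 19.3 CPM in Sham and 16.4, 16.4 and 40.3 CPM in AB. In AB_Implant it was 179, 61.3 and 212 CPM. All 3 AB_Implant libraries stood above all 6 Sham and AB libraries, and replicate 2 was the lowest of the 3. The group means were 19.0 ± 0.82 CPM in Sham, 24.3 ± 13.8 in AB and 151 ± 79.3 in AB_Implant (SD, n = 3 each).

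In the stimulated groups, Rcan1 was at 20.9, 22.8 and 9.67 CPM in VNS20_1w. It was at 35.1, 23.7 and 66.0 CPM in VNS20_2w and at 44.7, 25.2 and 15.9 CPM in VNS20_4w. In VNS10_1w it was at 18.5, 60.6 and 21.3 CPM. VNS20_1w and VNS20_4w each had libraries on both sides of the narrow Sham range, VNS20_2w stood wholly above it, and 1 VNS10_1w library lay within it. The lowest AB_Implant library, at 61.3 CPM, was below 1 VNS20_2w library and above all libraries of the other 3 stimulated groups, the nearest being a VNS10_1w library at 60.6 CPM.

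**Figure D2:**
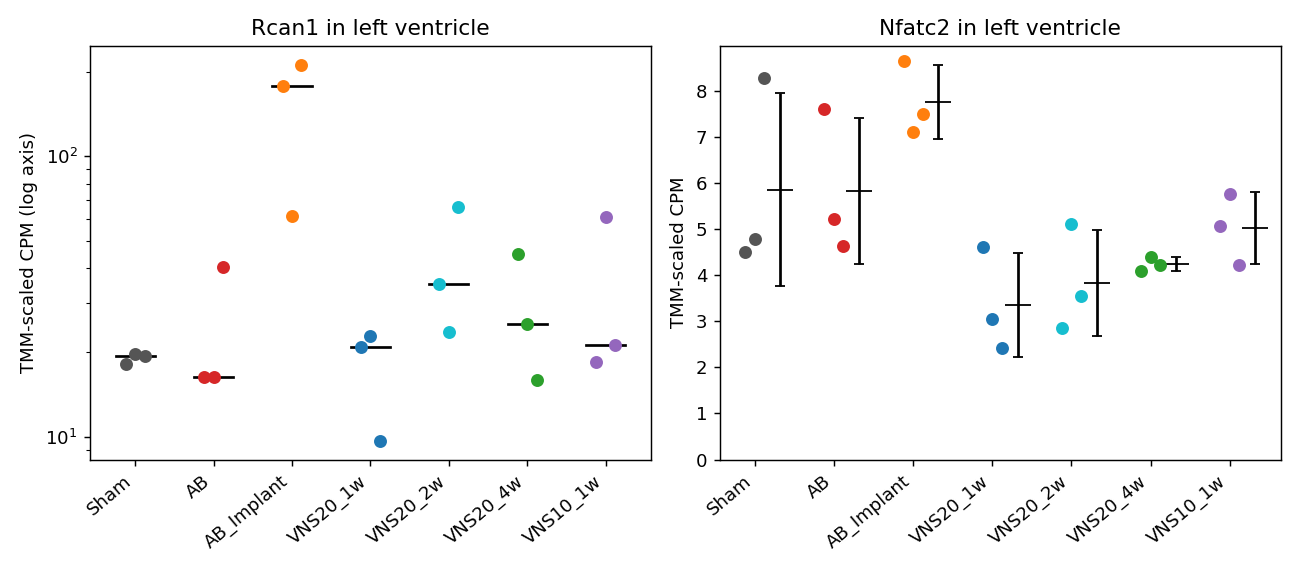
TMM-scaled CPM of Rcan1 (left, log axis) and Nfatc2 (right, linear axis) in 7 groups of 3 libraries; points are libraries, black lines are group medians for Rcan1, and crosses with bars are group means ± SD for Nfatc2. AB_Implant spans 61.3 to 212 CPM for Rcan1 and 7.11 to 8.65 CPM for Nfatc2, above all 12 stimulated libraries for Nfatc2 and all but 1 for Rcan1.

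The question of which members responded to banding and to the silent implant was tested with edgeR's quasi-likelihood test on all 12100 genes, with Benjamini-Hochberg adjustment. In AB_Implant against Sham, Rcan1 rose by 2.99 on the log2 scale (SE 0.58, adjusted p = 0.043), a 7.92-fold difference. It was the only member called, 1 of 10, where 0.281% of all tested genes were called, and the only one whose groups did not overlap, where 18.8% of all genes did not. The members' median log2 fold change was 0.06 and that of all genes was -0.01. In AB against Sham edgeR called 0 of 10 members and 0.0% of all genes. An unadjusted p under 0.05 was held by 0 members and 4.99% of all genes, and DESeq2 called 0 members and 11 genes. Rcan1 differed there by 0.36 (SE 0.55, adjusted p = 0.863), with a 95% interval from -0.79 to 1.51, which leaves room for a rise or a fall. Ppp3cb and Myoz2 were the members whose AB and Sham libraries did not overlap, 2 of 10 against 13.8% of all genes, with log2 differences of -0.82 and 0.48 and adjusted p = 0.837 for each.

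AB_Implant differed from AB in the implant alone, as far as the labels say. Rcan1 was 2.63 higher on the log2 scale in AB_Implant (SE 0.57, adjusted p = 0.228), which did not pass the threshold although the libraries did not overlap. edgeR called 0 of 10 members and 0.0% of all genes in this comparison. An unadjusted p under 0.05 was held by 1 member and 9.08% of all genes. DESeq2 called 68 genes and among the members 1, Rcan1 (adjusted p = 0.0022). Nfatc3 and Myoz2 also did not overlap, making 3 of 10 against 17.1% of all genes, with log2 differences of 0.88 and -0.34.

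The Rcan1 call against Sham was close to the threshold. Its log2 fold change stayed between 2.66 and 3.36 when each of the 21 libraries was left out in turn, but the adjusted p ran from 0.0098 to 0.218. It rose past the threshold without Sham replicate 1 (0.218), 2 (0.206) or 3 (0.107) and without AB_Implant replicate 1 (0.195) or 3 (0.204). It was also just above the threshold, at 0.0500 to 0.0565, without AB replicate 1, 2 or 3, VNS20_1w replicate 1, VNS20_4w replicate 2 or VNS10_1w replicate 3, all of which lie outside the 2 groups.

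Stimulation from week 1 for 20 min a day went with a lower Rcan1 transcript than the silent implant. In VNS20_1w against AB_Implant, Rcan1 fell by 3.08 on the log2 scale (SE 0.59, edgeR adjusted p = 0.020), and it was 8.44-fold lower. It was the only member called, 1 of 10 against 0.463% of all genes. Its groups and those of Nfatc2 did not overlap, 2 of 10 against 12.4% of all genes. VNS20_1w and Sham differed by -0.09 (SE 0.55, 95% interval -1.25 to 1.06), an interval too wide to show that the groups were alike. The call against AB_Implant was lost without AB_Implant replicate 1 (adjusted p = 0.083) or 3 (0.103) and without VNS20_1w replicate 1 (0.105), 2 (0.0650) or 3 (0.140), while the log2 change stayed between -3.45 and -2.75. A fit on only these 2 groups also lost it.

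The other stimulation schedules also had lower Rcan1 means than AB_Implant. None of these differences passed the threshold in edgeR's fit of all 21 libraries without a covariate. The log2 difference was -2.40 for VNS20_4w (SE 0.57, adjusted p = 0.080), -2.17 for VNS10_1w (SE 0.56, adjusted p = 0.199) and -1.86 for VNS20_2w (SE 0.56, adjusted p = 0.449) in edgeR. Called members numbered 0 of 10 in each, where 0.322%, 0.157% and 0.174% of all genes were called. Unadjusted p-values under 0.05 numbered 6, 1 and 2 among the members, and DESeq2 called 1, 1 and 0. The member that DESeq2 called was Rcan1, in VNS20_4w (adjusted p = 0.0027) and in VNS10_1w (adjusted p = 0.022). Unadjusted p-values under 0.05 were held by 26.3%, 6.68% and 5.1% of all genes, and DESeq2 called 461, 91 and 78 genes. Groups did not overlap for 8 members in VNS20_4w, where 48.8% of all genes did not. They did not overlap for 2 members in VNS10_1w (11.0% of all genes) and for 1 in VNS20_2w (7.31%). With the length slope as a covariate, edgeR also called Rcan1 in VNS10_1w against AB_Implant (adjusted p = 0.021) and in AB_Implant against AB (adjusted p = 0.036). That fit did not call Rcan1 against AB_Implant in VNS20_4w (-1.82, SE 0.54, adjusted p = 0.175) or VNS20_2w (-1.58, SE 0.49, adjusted p = 0.153). These comparisons share the 3 AB_Implant libraries, so a high value there enters all of them. Session length was compared within the week-1 start, where VNS20_1w and VNS10_1w differed in Rcan1 by -0.91 (SE 0.55, adjusted p = 1.00) with a 95% interval from -2.07 to 0.25. edgeR called 0 of 10 members and 0.0992% of all genes there. An unadjusted p under 0.05 was held by 0 members and 4.54% of all genes, and DESeq2 called 0 members and 56 genes.

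Against AB, which had no implant, the Rcan1 differences were smaller and of either sign. The log2 difference was -0.45 in VNS20_1w, 0.77 in VNS20_2w, 0.23 in VNS20_4w and 0.46 in VNS10_1w, with standard errors of 0.55 in each. edgeR called 0 of 10 members in each, against 0.289%, 0.107%, 0.149% and 0.0496% of all genes. Members with an unadjusted p under 0.05 numbered 1 in VNS20_1w and 0 in the others, and DESeq2 called 0 members in each. The shares of all genes with such a p-value were 4.3%, 3.97%, 5.19% and 5.23%, and DESeq2 called 86, 54, 37 and 25 genes. The pool of 4 stimulated groups against both unstimulated banded groups gave -1.06 (SE 0.32, adjusted p = 0.441). edgeR called 0 members of 10 and 0.438% of all genes in the pool. An unadjusted p under 0.05 was held by 2 members and 5.0% of all genes. DESeq2 called 83 genes in the pool and among the members 1, Nfatc2. Across all 7 groups at once, edgeR's F test called Rcan1 (adjusted p = 0.022) and no other member, 1 of 10 against 0.537% of all genes. That call was lost without Sham replicate 2 (adjusted p = 0.053) or AB_Implant replicate 1 (0.160) or 3 (0.217).

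Markers of other cells were set beside the Rcan1 values. Summed fibroblast markers were 495 to 1172 CPM in AB_Implant and 450 to 713 CPM in Sham, and macrophage markers were 73.7 to 120 and 50.9 to 90.6 CPM. None of the 6 fibroblast or 5 macrophage markers was called by edgeR in AB_Implant against Sham, where 1 and 0 had an unadjusted p under 0.05 and DESeq2 called 1 fibroblast marker. In that comparison 9.64% of all genes had such a p-value, and DESeq2 called 236 genes. Smooth muscle and pericyte markers were lower without overlap, at 127 to 152 CPM in AB_Implant and 182 to 528 CPM in Sham. All 5 had a negative log2 difference, with 3 at an unadjusted p under 0.05, 0 called by edgeR and 1 by DESeq2. Erythroid markers were higher without overlap, at 357 to 741 CPM in AB_Implant and 236 to 274 CPM in Sham. All 5 had a positive log2 difference, with 1 at an unadjusted p under 0.05 and 0 called by either tool. In VNS20_1w the smooth muscle and pericyte sum was 124 to 254 CPM and the erythroid sum 603 to 2073 CPM. The mitochondrial share of counts was 34.4 to 44.4% in AB_Implant, 42.1 to 48.5% in Sham and 39.7 to 55.3% in VNS20_1w. The part of these markers and shares in the Rcan1 differences was not tested. Atrial markers varied from library to library, from 0.787 to 511 CPM in AB_Implant, and the library with 511 CPM was the one with the lowest Rcan1. The other 2 AB_Implant libraries, with the highest Rcan1, had 6.12 and 0.787 CPM of atrial markers. Other sums also set that library, replicate 2, apart. In AB_Implant replicates 1, 2 and 3, fibroblast markers were at 1137, 495 and 1172 CPM and cardiomyocyte markers at 36800, 40580 and 29130 CPM. Macrophage markers were at 73.7, 120 and 97.3 CPM and erythroid markers at 536, 741 and 357 CPM. Their part in the Rcan1 spread was not tested. Liver markers were at most 0.151 CPM in AB_Implant and 0.300 CPM in Sham.

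Rcan2, the second calcineurin inhibitor, was called in no comparison by DESeq2 or by edgeR's fit of all 21 libraries. It ranged from 58.7 to 122 CPM over 21 libraries. It was at 76.99 ± 21.2 CPM in Sham and 93.6 ± 11.4 CPM in AB_Implant (SD, n = 3 each), a log2 difference of 0.28 (SE 0.27, adjusted p = 0.905). The 95% interval ran from -0.28 to 0.84. In VNS20_4w against AB_Implant the Rcan2 libraries did not overlap, as for 48.8% of all genes. The log2 difference there was -0.46 (SE 0.27, edgeR adjusted p = 0.247). limma-voom with sample weights called Rcan2 there and in VNS20_1w against AB_Implant, beside 4977 and 2066 of all genes. edgeR on only the groups compared called it in VNS20_4w against AB_Implant, beside 4003 of all genes.

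Nfatc2, an NFAT factor best known from lymphocytes, was the member with the second pattern across groups. It was at 4.51, 4.79 and 8.27 CPM in Sham, at 7.61, 5.22 and 4.64 CPM in AB, and at 8.65, 7.11 and 7.50 CPM in AB_Implant. In VNS20_1w it was at 4.61, 3.05 and 2.42 CPM and in VNS20_2w at 2.85, 5.10 and 3.55 CPM. In VNS20_4w it was at 4.09, 4.39 and 4.23 CPM and in VNS10_1w at 5.07, 5.76 and 4.22 CPM. The 3 AB_Implant libraries stood above all 12 stimulated ones, whose highest was 5.76 CPM, but 1 Sham and 1 AB library reached the AB_Implant range.

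None of the Nfatc2 differences passed the threshold in edgeR's fit of all 21 libraries without a covariate. Against AB_Implant the log2 difference was -1.20 in VNS20_1w (SE 0.31, adjusted p = 0.118), -1.03 in VNS20_2w (SE 0.31, adjusted p = 0.446), -0.87 in VNS20_4w (SE 0.31, adjusted p = 0.152) and -0.63 in VNS10_1w (SE 0.30, adjusted p = 0.747). The pool of stimulated groups against both unstimulated banded groups gave -0.72 (SE 0.18, adjusted p = 0.146, unadjusted p = 0.00088). DESeq2 called Nfatc2 in VNS20_1w against AB_Implant (adjusted p = 0.018) and in the pool (adjusted p = 0.029). edgeR's fit with each library's length slope as a covariate also called both, with adjusted p = 0.021 and 0.035. On only the groups compared, edgeR called Nfatc2 in VNS20_4w against AB_Implant, beside 4003 of all genes. Without the 3 libraries of the highest length slope, edgeR called it there (3795 of all genes) and in the pool (2124). limma-voom with sample weights called it against AB_Implant in all 4 stimulated groups and in the pool, beside 441 to 4977 of all genes. T-cell markers were near the detection limit, at a summed 0.092 to 1.61 CPM in the 21 libraries, and 0 of the 5 passed the filter.

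The log2 levels of 5 of the 10 members followed the length slope of the library with an r beyond 0.9 in size, where 14.6% of all tested genes did. Over the 21 libraries, the log2 level of Nfatc3 rose with the length slope with Pearson's r = 0.953 (Spearman's rho 0.927), Ppp3cb with 0.935 (0.942), Ppp3r1 with 0.914 (0.923) and Nfatc1 with 0.908 (0.905). Myoz2 fell, with r = -0.931 (rho -0.939). The permutation p was 1e-05 for each r and rho of these 5, the smallest that 100000 permutations give, and 2e-05 after adjustment over the 10 members. Rcan2 (r = 0.771, adjusted permutation p = 0.000114) and Ppp3ca (r = 0.794, adjusted permutation p = 5e-05) also rose with it. Nfatc4 (-0.332), Rcan1 (0.308) and Nfatc2 (0.067) had adjusted permutation p = 0.178, 0.194 and 0.773. Without the 2 libraries of most extreme slope, VNS20_2w replicate 1 and VNS20_1w replicate 2, r was 0.934 for Nfatc3 and -0.897 for Myoz2. Within groups it was 0.946 and -0.925. For Nfatc2, r was 0.496 without those 2 libraries and -0.163 within groups, so its value over all 21 rests on them. For Rcan1 it was 0.408 and 0.448. Such relations were common, since the 14.6% covers an r beyond 0.9 in either direction over all tested genes. The permutation p-values were adjusted over the 10 members only, and the share of all genes that would pass them was not computed. All 21 libraries were permuted without regard to group, although the slope differed between groups, so these p-values do not measure the relation within groups. The slope was itself computed from these counts, the members included.

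**Figure D3:**
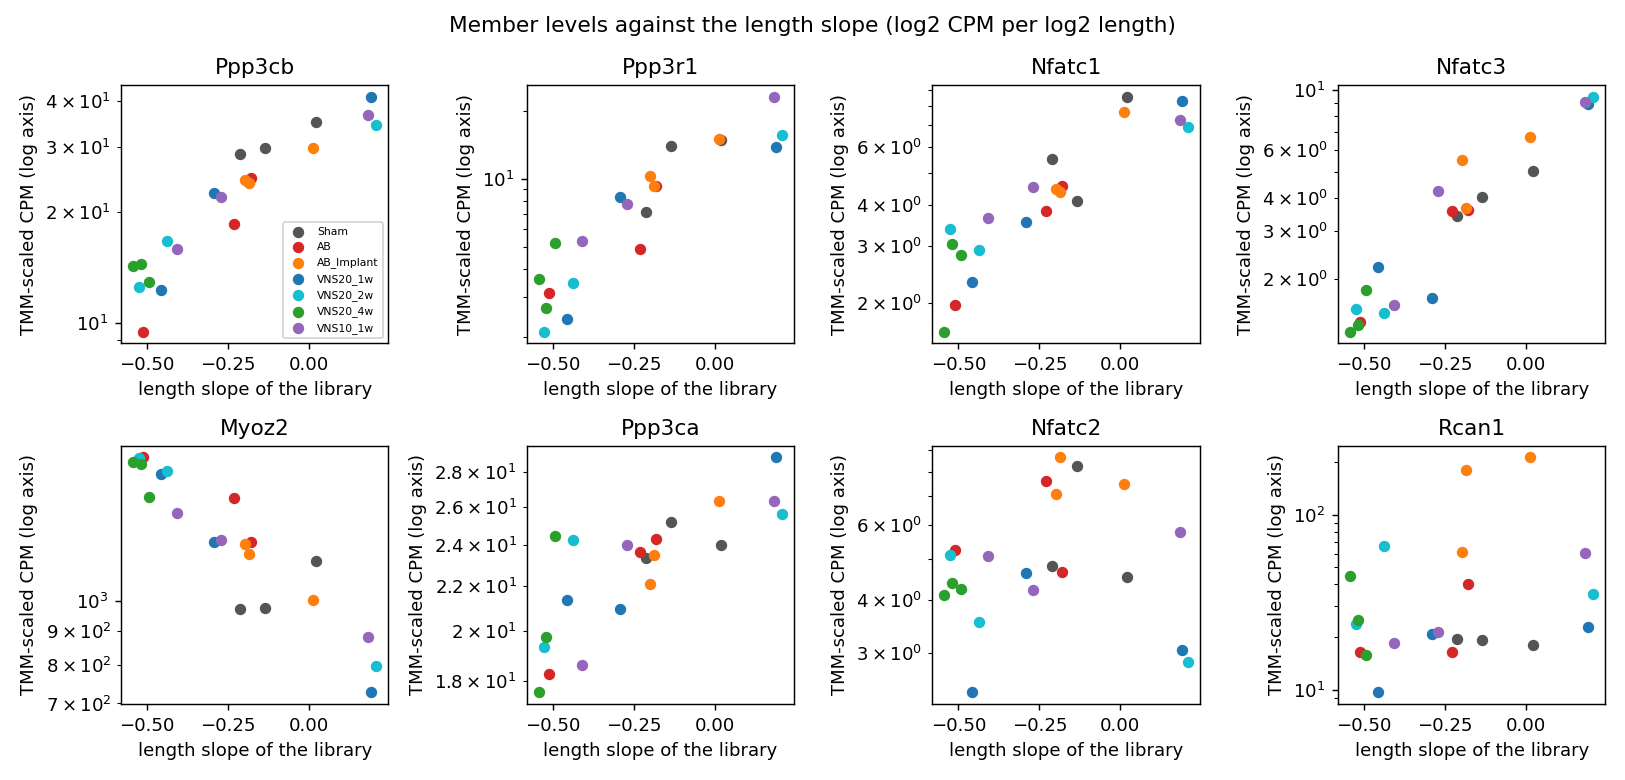
TMM-scaled CPM (log axis) of 8 members against the length slope of each of 21 libraries, the slope of log2 CPM on log2 exon length across genes; points are libraries coloured by group. Ppp3cb, Ppp3r1, Nfatc1 and Nfatc3 rise and Myoz2 falls along the slope with r beyond 0.9 in size, while Nfatc2 and Rcan1 have r = 0.067 and 0.308 over all 21 libraries and 0.496 and 0.408 without the 2 of most extreme slope.

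Among the calcineurin subunits, Ppp3r1 and Ppp3cb were low in the VNS20_4w libraries, whose slopes were among the lowest. Ppp3r1 was at 3.64, 2.70 and 5.22 CPM in VNS20_4w and at 9.32, 10.4 and 15.0 CPM in AB_Implant. Ppp3cb was at 14.3, 14.4 and 12.9 CPM in VNS20_4w and at 24.0, 24.4 and 29.8 CPM in AB_Implant. The groups did not overlap for either subunit. Ppp3ca, a catalytic subunit, was at 20.6 ± 3.5 CPM in VNS20_4w and 24.0 ± 2.2 CPM in AB_Implant (SD, n = 3 each), and these overlapped.

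Nfatc3, one of the NFAT factors that cardiac muscle expresses, was at 1.27, 1.35 and 1.82 CPM in VNS20_4w and at 3.66, 5.52 and 6.71 CPM in AB_Implant. Nfatc1, known for its part in valve formation, was at 1.64, 3.04 and 2.82 CPM in VNS20_4w and at 4.39, 4.46 and 7.67 CPM in AB_Implant. Both factors were lower in VNS20_4w without overlap. Myoz2 went the other way, at 1626, 1614 and 1440 CPM in VNS20_4w and 1180, 1219 and 1002 CPM in AB_Implant.

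In VNS20_4w against AB_Implant, the log2 difference was -1.83 for Nfatc3 (SE 0.75), -1.58 for Ppp3r1 (SE 0.71), -1.14 for Nfatc1 (SE 0.49), -0.91 for Ppp3cb (SE 0.42) and 0.46 for Myoz2 (SE 0.28). edgeR's adjusted p for these 5 ran from 0.167 to 0.261, so none was called. With the length slope as a covariate the same differences were -0.38, -0.19, -0.25, -0.07 and -0.05, so that of Myoz2 turned in sign. Against Sham, 6 of 10 members did not overlap in VNS20_4w, against 49.3% of all genes, and edgeR called 0 of 10 members against 0.405% of genes. An unadjusted p under 0.05 was held by 4 members and 26.6% of all genes, and DESeq2 called 0 members and 662 genes. Within these 2 comparisons the slope and the VNS20_4w group cannot be told apart, since no library of that group had a slope in the range of the Sham or AB_Implant libraries. Outside them, AB replicate 2 (-0.512) and VNS20_2w replicate 2 (-0.525) had slopes in the VNS20_4w range. The covariate fit used these libraries as well.

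**Figure D4:**
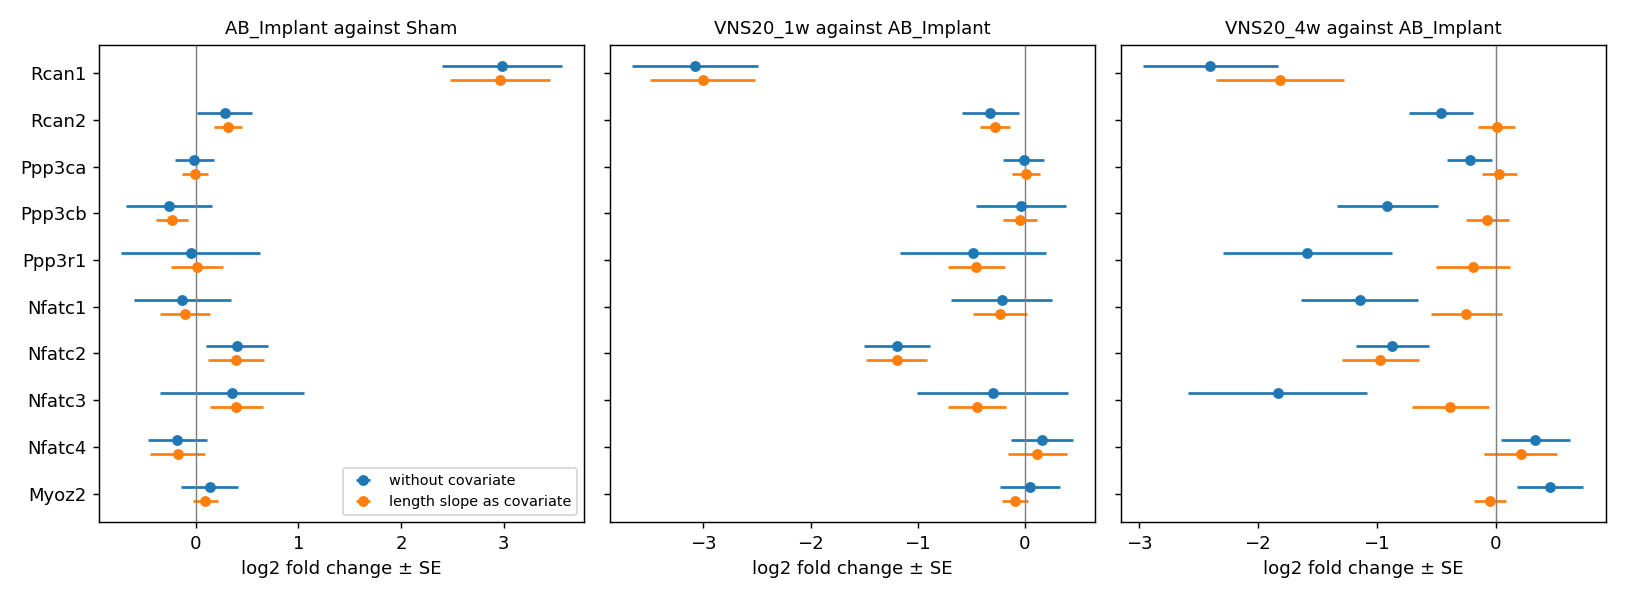
Log2 fold changes ± SE of the 10 members from edgeR in 3 comparisons; blue points are fitted without a covariate and orange points with each library's length slope as a covariate. Rcan1 stays near 3 in AB_Implant against Sham and near -3 in VNS20_1w against AB_Implant in both fits, whereas Nfatc3, Ppp3r1, Nfatc1 and Ppp3cb in VNS20_4w move from between -1.83 and -0.91 to between -0.38 and -0.07.

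Nfatc4, an NFAT factor tied to cardiac hypertrophy in mice, varied least among the factors. It ranged from 2.46 to 5.64 CPM over 21 libraries, with 3.75 ± 0.17 CPM in Sham and 3.30 ± 0.73 CPM in AB_Implant (SD, n = 3 each). The log2 difference was -0.18 (SE 0.29, edgeR adjusted p = 1.00), with a 95% interval from -0.78 to 0.42.

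The genes around the pathway were counted from 5 lists. For scale, 9.64% of all genes had an unadjusted p under 0.05 in AB_Implant against Sham and 8.77% in VNS20_1w against AB_Implant. DESeq2 called 236 and 190 genes in these 2 comparisons. Among calcineurin's other subunits, binders and anchors, 11 of 15 genes were tested and edgeR called 0 in AB_Implant against Sham and 0 in VNS20_1w against AB_Implant, with 0 and 1 at an unadjusted p under 0.05 and 0 called by DESeq2 in either. Their median log2 difference from Sham was 0.05. Ppp3cc, the catalytic subunit best known from testis, was at 40.1, 32.9 and 32.9 CPM in AB_Implant and 25.7, 32.4 and 22.7 CPM in Sham. Fkbp1a, the immunophilin through which tacrolimus blocks calcineurin, was at 78.1, 58.2 and 72.3 CPM in AB_Implant and 48.3, 58.0 and 60.5 CPM in Sham. Neither passed the test (edgeR adjusted p = 0.582 and 0.695).

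Of the kinases that return NFAT to the cytoplasm and the Homer proteins that compete with calcineurin for NFAT, 10 of 10 were tested. edgeR called 0 in both comparisons, with 1 and 2 at an unadjusted p under 0.05 and 0 called by DESeq2 in either. Homer2 was at 44.0, 36.5 and 46.1 CPM in AB_Implant and 30.6, 20.97 and 24.8 CPM in Sham, without overlap, but the difference of 0.73 (SE 0.26) had an adjusted p = 0.311. Homer3 was at 6.19, 6.81 and 5.55 CPM in AB_Implant and at 4.67, 3.74 and 3.53 CPM in VNS20_1w, a log2 difference of -0.63 (SE 0.24, adjusted p = 0.392).

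Upstream calcium channels and stores gave 8 tested genes of 9, all 8 with a negative log2 difference in AB_Implant against Sham and a median of -0.28. edgeR called 0 of them there and 0 in VNS20_1w against AB_Implant, with 2 and 2 at an unadjusted p under 0.05, and DESeq2 called 2 and 1. Cacna1h, a T-type calcium channel, was at 2.99, 4.84 and 0.994 CPM in AB_Implant and at 11.2, 7.43 and 7.32 CPM in Sham, a log2 difference of -1.57 (SE 0.46, adjusted p = 0.168).

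In AB_Implant against Sham, the list of partner factors and cardiac target genes was the pathway list in which more than 1 gene was called. Whether NFAT acts on the genes of this list was not measured. There edgeR called 3 of 11 tested genes higher and 0 lower, and the list's median was 1.76 where that of all genes was -0.01. The list was chosen with earlier results of these libraries known, so its direction is not independent evidence. Ankrd1, a stretch-responsive titin-binding repressor, was at 3260, 988 and 3862 CPM in AB_Implant and 252, 275 and 595 CPM in Sham. It rose by 2.85 (SE 0.50, adjusted p = 0.038). Xirp2, which binds actin at the cell junctions of heart muscle, was at 2485, 694 and 3248 CPM in AB_Implant and 337, 333 and 399 CPM in Sham, and rose by 2.59 (SE 0.49, adjusted p = 0.038). Nppa, the atrial natriuretic peptide gene, was at 5398, 1319 and 4453 CPM in AB_Implant and 211, 106 and 347 CPM in Sham. It rose by 4.07 (SE 0.84, adjusted p = 0.049).

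These calls, like that of Rcan1, were close to the threshold. When each of the 21 libraries was left out in turn, Ankrd1 was not called in 7 fits (adjusted p up to 0.218), Xirp2 in 9 (up to 0.218) and Nppa in 14 (up to 0.271). All 3 calls were lost without Sham replicate 1 or 2, AB_Implant replicate 1 or 3, VNS20_1w replicate 1, VNS20_4w replicate 2 or VNS10_1w replicate 3. Xirp2 and Nppa were also lost without Sham replicate 3 or AB replicate 3, and Nppa without AB replicate 1 or 2, VNS20_1w replicate 3, VNS20_2w replicate 2 or VNS10_1w replicate 1. The log2 differences stayed between 2.51 and 3.36 for Ankrd1, 2.16 and 3.01 for Xirp2, and 3.71 and 4.55 for Nppa. On only the groups compared, edgeR lost the calls of Ankrd1 and Xirp2 (adjusted p = 0.0536 each). The Nppa call was lost in edgeR with DESeq2 size factors (0.0509) and with scaling without mitochondrial genes (0.0519).

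In all 3 genes, as in Rcan1, replicate 2 was the lowest AB_Implant library, and no AB_Implant library overlapped Sham. The replicate with 511 CPM of atrial markers was the one with least Nppa in its group. In VNS20_1w the 3 genes were lower than in AB_Implant, by -1.01 for Ankrd1, -1.65 for Xirp2 and -2.54 for Nppa on the log2 scale. edgeR called 0 of the 11 there, with 5 at an unadjusted p under 0.05 and 2 called by DESeq2.

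At the Z-disc, where Myoz2 holds calcineurin, 7 of 8 listed genes were tested. Myot, an actin cross-linker of the Z-disc, was at 229, 106 and 182 CPM in AB_Implant and 46.7, 24.3 and 37.4 CPM in Sham, and rose by 2.25 (SE 0.38, edgeR adjusted p = 0.038). It was also called higher than Sham in VNS20_2w, by 1.97 (SE 0.37, adjusted p = 0.028), and in VNS20_4w, by 2.06 (SE 0.37, adjusted p = 0.017). Flnc, filamin C, was at 744, 327 and 866 CPM in AB_Implant and at 217, 229 and 187 CPM in VNS20_1w, and fell by 1.61 (SE 0.35, adjusted p = 0.046). With libraries left out in turn, the Myot call was lost in 7 of 21 fits in AB_Implant, 5 in VNS20_2w and 5 in VNS20_4w against Sham. In AB_Implant these were the fits without Sham replicate 1 or 2, AB_Implant replicate 1 or 3, VNS20_1w replicate 1, VNS20_4w replicate 2 or VNS10_1w replicate 3. Its call in VNS20_2w was lost without any of the Sham replicates or VNS20_2w replicate 2 or 3, and that in VNS20_4w without any of the Sham replicates or VNS20_4w replicate 1 or 2. The log2 differences of Myot stayed between 1.75 and 2.51. The Flnc call was lost in 16 of 21 such fits, with an adjusted p up to 0.255, and in the fit on only the groups compared (0.296), while its log2 difference stayed between -1.93 and -1.34. On only the groups compared, edgeR also lost the Myot call in VNS20_2w against Sham (adjusted p = 0.292). With a filter of a mean of at least 5 CPM, edgeR lost the Myot calls in VNS20_2w (0.0825) and VNS20_4w (0.0605) and the Flnc call (0.0782). Scaling with DESeq2 size factors lost the Flnc call as well (0.0529). Myot was the 1 gene of the 7 called in AB_Implant against Sham and Flnc the 1 called in VNS20_1w against AB_Implant. Myoz2 itself differed from Sham by 0.13 in AB_Implant (SE 0.28, adjusted p = 1.00).

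The transcripts most like Rcan1 were found by Pearson's correlation of log2 TMM-scaled CPM over the 21 libraries, among 7537 genes with a mean of at least 5 CPM. They were Hsp90aa1 (r = 0.94), an inducible cytosolic chaperone, Ubxn4 (0.94), a factor of protein degradation at the endoplasmic reticulum, Enah (0.94), an actin regulator, Dnaja4 (0.93), a co-chaperone, and Ccn2 (0.91), a matricellular growth factor. The 21 points share library and scaling, so these values describe these libraries. With CPM of library totals in place of TMM-scaled CPM, 2 of the 5 were again among the first 5. Hsp90aa1 was at 290, 192 and 266 CPM in AB_Implant and at most 179 CPM in the other 18 libraries, so it did not overlap them. Ccn2 was at 126, 60.4 and 308 CPM in AB_Implant and reached 77.7 CPM elsewhere, and the other 3 overlapped as well.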

How the data were processed

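The authors deposited 1 table of counts per gene and library. Its name speaks of normalized counts, but 100% of the values are whole, library totals differ (11577509 to 19414865), and the unevenness of low counts was 0.734 to 1.31, against at least 1.95 in copies rescaled by 5 factors, so the values were used as raw counts. The submitters' processing notes list edgeR 3.32.1 in R 4.0.3, featureCounts 1.6.0 (Subread), the aligner HISAT2 2.1.0, the trimmer cutadapt 1.11 and FastQC 0.11.9, and the builds GRCm38 and mm10. Whether counting used strand is not given in the sources used here, so reads of a gene and an antisense partner cannot be told apart. All value columns were mapped to samples by name.

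Genes with at least 1 CPM in at least 3 libraries were tested with edgeR 4.0.16 (limma 3.58.1, R 4.3.3): TMM factors (0.731 to 1.39), a quasi-likelihood fit of all 21 libraries in 7 groups, 17 contrasts and a 7-group F test, with Benjamini-Hochberg adjustment over 12100 genes and a threshold of 0.05. The scripts were tested on simulated data. CPM values are counts per 1000000 of the library total times its TMM factor, and correlations used log2 CPM with 0.5 added to each count before scaling. The 95% intervals of log2 fold changes use the t distribution with the test's degrees of freedom. Lengths and symbols came from the GRCm38 annotation and promoters from RefSeq. DESeq2 1.42.0, limma-voom with sample weights, other scalings and filters, the length slope as covariate, a replicate block and leaving out libraries were the alternatives.

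All 10 members were named. From each list the text names the genes called in a contrast it describes, at most 4, and otherwise the 2 of smallest p in the F test, and the 5 genes most correlated with Rcan1. A gene of these lists that the rule would name is not reported here. The members and lists were chosen with earlier results of these data known.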

Additional observations from a re-analysis of the deposited data

How the results depend on the processing

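The counts of called members depended on the model of the spread. DESeq2 called 1 member in AB_Implant against AB, 2 in VNS20_1w, 1 in VNS20_4w and 1 in VNS10_1w against AB_Implant, 1 in the pool of stimulated groups and 2 in its likelihood ratio test over the 7 groups. Its counts over all genes, in that order, were 68, 190, 461, 91, 83 and 541. limma-voom with sample weights called 4, 5, 8 and 2 members in VNS20_1w, VNS20_2w, VNS20_4w and VNS10_1w against AB_Implant, 4 and 5 in VNS20_2w and VNS20_4w against Sham, 1 in VNS20_1w against VNS10_1w, 2 in the pool and 6 in the F test. In the same order it called 2066, 2241, 4977 and 2024, 2802 and 4537, 1994, 441 and 5795 of all genes. The member counts in these fits therefore stand beside calls of many other genes. The length slope as covariate gave 1 member in AB_Implant against AB, 2 in VNS20_1w and 1 in VNS10_1w against AB_Implant and 1 in the pool. That fit called 45, 482, 178 and 128 of all genes there. Without the 3 libraries of the highest length slope the member counts were 1 in AB_Implant against AB, 3, 7 and 1 in VNS20_2w, VNS20_4w and VNS10_1w against AB_Implant, 4 and 5 in VNS20_2w and VNS20_4w against Sham, 4 in the pool and 5 in the F test. Over all genes, in the same order, they were 37, then 1727, 3795 and 44, then 2222 and 3791, then 2124 and 2390. Fits on only the groups compared called 0 members in VNS20_1w and 8 in VNS20_4w against AB_Implant and 5 in VNS20_4w against Sham. They called 15, 4003 and 3927 of all genes in these comparisons. With a mean of at least 5 CPM the F test called 0 members and 7 of all genes. The cause of these changes was not tested.

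Leaving out single libraries gave 0 to 1 called members in AB_Implant against Sham, in VNS20_1w and VNS20_4w against AB_Implant, and in the F test. Some Rcan1 differences that were not called changed sign. Rcan1 in AB against Sham ranged from -0.22 to 0.58, VNS20_1w, VNS20_4w and VNS10_1w against AB from -0.67 to 0.13, -0.25 to 0.81 and -0.30 to 1.04, and VNS20_1w against Sham from -0.31 to 0.20. Rcan1 in VNS10_1w against AB was -0.13 with voom weights and -0.26 without the 3 highest-slope libraries, and in VNS20_1w against Sham 0.044 with voom weights. With the slope covariate, Nfatc3 in VNS20_4w against Sham was 0.013 and Myoz2 in VNS20_4w against AB_Implant was -0.050.

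The replicate numbers did not pair the libraries. Of 63 same-numbered pairs 17 had correlated deviations over 0.1, from -0.703 to 0.781, and 6 of 21 libraries correlated best with their own number. With the replicate block, edgeR called 0 members in AB_Implant against Sham, VNS20_1w against AB_Implant and the F test, where the Rcan1 adjusted p was 0.094, 0.063 and 0.097 and its log2 fold change 2.96 and -3.03. Ankrd1, Xirp2, Nppa and Myot in AB_Implant against Sham (adjusted p = 0.0854 to 0.0922), Myot in VNS20_2w against Sham (0.0665) and Flnc in VNS20_1w against AB_Implant (0.114) were not called with it either. The lowest counts behind a value were 14 for Nfatc3 and 18 for Nfatc1, which limits the precision of the NFAT factors.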
